A study of Mus musculus with 22 samples.

Results

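The genes described here act in the interneurons of the olfactory bulb. They are the homeodomain transcription factors Dlx1, Dlx2, Dlx5 and Dlx6, the zinc finger factors Sp8 and Sp9, the ETS factor Etv1, the zinc finger factor Tshz1, and the glutamate decarboxylases Gad1 and Gad2, which make the transmitter GABA. These 10 genes, of 21755 protein-coding genes on chromosomes 1 to 19 and X, were taken by name. Their spans in GENCODE M21 (mm10) were laid over bins of 100 kb with a level of 5-methylcytosine (5mC) and bins of 1 Mb with a level of 5-hydroxymethylcytosine (5hmC). Dlx1 lies beside Dlx2 and Dlx5 beside Dlx6, so the genes form 8 loci, which touched 10 of the 26327 bins of 5mC and 8 of the 2641 bins of 5hmC. Every one of these bins had a level above 0 and below 1 in every library and was tested, among 25664 bins of 5mC and 2581 bins of 5hmC.

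The libraries came from the cortex, the olfactory bulb and the cerebellum of female C57BL/6 mice at 8 weeks of age, with the hippocampus removed from the cortex and each replicate taken from its own mouse. Oxidative bisulfite sequencing (oxBS-seq), in which only 5mC still reads as cytosine, gave 5mC in 3 libraries of cortex and in 2 each of the bulb and the cerebellum. TET-assisted bisulfite sequencing (TAB-seq), in which only 5hmC still reads as cytosine, gave 5hmC in 3 libraries of each tissue. No genotype, transgene or treatment separates the groups, and each tissue was taken whole with no sorting of cells, so a level is an average over all of its cells. A change in the share of a cell type and a change within its cells therefore cannot be told apart.

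Interneurons of the olfactory bulb, the granule and periglomerular cells, keep being born in the adult brain. Their precursors arise along the lateral ventricle, migrate into the bulb and become GABAergic neurons. Dlx factors act in these precursors and promote expression of the glutamate decarboxylases. Sp8, Sp9, Etv1 and Tshz1 act later, in the migration, survival or subtype of the new neurons. 5mC at promoters and enhancers usually goes with silence of a gene. 5hmC is made from 5mC by TET enzymes and is abundant in the bodies of genes expressed in neurons.

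The sequence just upstream of the start sites shows how much CpG these genes offer for methylation. RefSeq windows of 300 bases on GRCm38 were found for 7 of the 10 genes, in 10 windows. Dlx5, Dlx6 and Tshz1 are named only. The stretches printed below lie before a start site and outside every annotated exon, run 5′ to 3′ on the strand of the gene, and have each CpG in capitals. They are those of Dlx2 (chr2:71546755-71547004, minus strand), Sp9 (chr2:73271676-73271924, plus strand), Sp8 (chr12:118846079-118846328, plus strand), Etv1 (chr12:38779832-38780081, plus strand), Gad1 (chr2:70561879-70562041, plus strand) and Gad2 (chr2:22622077-22622204, plus strand). The stretches of Etv1 and Gad1 precede a start site that lies inside the longer GENCODE span of the gene.
Dlx2: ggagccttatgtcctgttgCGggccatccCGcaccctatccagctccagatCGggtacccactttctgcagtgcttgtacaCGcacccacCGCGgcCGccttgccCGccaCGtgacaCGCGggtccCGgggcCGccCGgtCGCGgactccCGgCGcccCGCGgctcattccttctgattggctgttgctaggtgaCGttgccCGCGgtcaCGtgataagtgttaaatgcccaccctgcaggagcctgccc
Sp9: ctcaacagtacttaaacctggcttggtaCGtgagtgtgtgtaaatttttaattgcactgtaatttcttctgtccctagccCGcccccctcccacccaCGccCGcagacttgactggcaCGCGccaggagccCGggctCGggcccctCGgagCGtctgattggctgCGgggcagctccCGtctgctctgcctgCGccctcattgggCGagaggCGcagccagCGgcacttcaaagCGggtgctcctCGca
Sp8: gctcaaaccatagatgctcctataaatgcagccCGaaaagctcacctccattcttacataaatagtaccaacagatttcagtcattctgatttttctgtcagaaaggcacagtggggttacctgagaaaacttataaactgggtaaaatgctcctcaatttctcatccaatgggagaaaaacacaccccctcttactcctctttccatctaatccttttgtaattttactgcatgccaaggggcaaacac
Etv1: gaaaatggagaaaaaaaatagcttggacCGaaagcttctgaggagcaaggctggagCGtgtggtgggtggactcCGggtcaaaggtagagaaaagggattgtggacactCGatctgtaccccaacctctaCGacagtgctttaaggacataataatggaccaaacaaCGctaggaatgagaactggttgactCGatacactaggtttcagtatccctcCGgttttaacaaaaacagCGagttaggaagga
Gad1: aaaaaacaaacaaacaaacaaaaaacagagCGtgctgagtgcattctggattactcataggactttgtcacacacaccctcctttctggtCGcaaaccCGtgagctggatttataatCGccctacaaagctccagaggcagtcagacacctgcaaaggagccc
Gad2: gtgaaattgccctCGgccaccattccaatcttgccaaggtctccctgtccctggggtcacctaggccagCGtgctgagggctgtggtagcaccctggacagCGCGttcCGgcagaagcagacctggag
The stretch of Dlx2 holds 24 CpGs in 250 bases and that of Sp9 holds 18 in 249, whereas the most upstream stretch of Sp8 holds 1 in 250. Etv1 holds 9 CpGs in 250 bases, Gad1 holds 4 in 163 and Gad2 holds 5 in 128. Over the full windows, Dlx1 had 27 CpGs, Dlx2 had 29 and Sp9 had 25, against a median of 7 over all 32851 windows. The 3 windows of Sp8 differed from each other, with 2, 32 and 10 CpGs. The letters TAATTA, the core that many homeodomain factors bind and its own reverse complement, stood in 1 of the 10 windows, the third of Sp8, and in 5.29% of all windows. The letters GGGCGG, a GC box, stood on either strand in 5 of the 10 windows, those of Dlx1, Dlx2, Sp9 and Gad1 and the second of Sp8, and in 35.7% of all windows. A match is a description of the letters only. The level of a 100 kb bin averages a far longer stretch of DNA and is not the level of the promoter.

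At 100 kb the member bins were rich in CpG. The bin of Tshz1 held 1830 CpGs, more than 99.2% of all bins tested, and the bin of Dlx1 and Dlx2 held 1765, more than 98.8% of them. The bins of Sp9 (1417 CpGs), Dlx5 and Dlx6 (1340) and the bin with the start of Gad1 (1321) held more CpGs than 90.2% to 93.4% of bins. The bins of Etv1 and Gad2, with 715 to 726 CpGs, were near the median of 751. The genes fill different shares of their bins. Tshz1 covers 76.1% of its bin, Gad2 71.7% and Etv1 70.5% of its second bin, whereas Dlx1 and Dlx2 together cover 9.22%, Dlx5 and Dlx6 9.52%, Sp8 6.25% and Sp9 12.8%. Gad1 covers 46.9% of its first bin and 2.01% of its second, so the second says little about Gad1.

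Against these bins stands a shift of the whole genome. Over all 100 kb bins the mean 5mC level was 0.677 in cortex, 0.707 in the bulb and 0.731 in cerebellum, and over all 1 Mb bins the mean 5hmC level was 0.163, 0.145 and 0.0949. Bins were compared on the scale log2(level/(1 − level)), the log2 ratio, with limma in 1 fit over the 3 tissues of each assay and Benjamini-Hochberg adjustment over all bins tested. The standard error was nearly the same in every bin, 0.12 to 0.13 for 5mC and 0.073 for 5hmC, so an adjusted p reflects the spread pooled over bins more than the spread of the bin itself. The median bin was 0.22 higher in olfactory bulb than in cortex for 5mC, and a change relative to this median is given where it matters.

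5mC in the bulb was lower than in cortex at most of these loci. Of the 10 member bins, 6 passed the test as lower (adjusted p under 0.05, limma) and 0 passed as higher, where 2.18% of all bins passed as lower and 37.6% as higher. The 6 lie at Tshz1, Dlx5 and Dlx6, Dlx1 and Dlx2, the second bin of Etv1, the first bin of Gad1, and Gad2. The bins of Sp8 and Sp9, the first bin of Etv1 and the second bin of Gad1 did not pass. The median change over the 10 bins was −0.47 on the log2 ratio, against 0.22 over all bins. With every library centred on its own median, the calls over all bins were 2541 lower and 2261 higher in place of 560 lower and 9637 higher, and the first bin of Etv1 and the bins of Sp8 and Sp9 then passed as lower too, while the second bin of Gad1, 0.19 higher, turned to −0.039.

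Tshz1, a zinc finger protein that new interneurons of the bulb need for their migration, had the largest difference. Its bin (chr18:84000001-84100000) had 5mC levels of 0.570, 0.575 and 0.556 in the 3 libraries of cortex. The level was 0.240 and 0.201 in the 2 libraries of olfactory bulb, and 0.601 and 0.562 in the 2 of cerebellum. Both libraries of the bulb lay far below all others, while cortex and cerebellum overlapped. The mean fell from 0.567 ± 0.0100 (SD, n = 3) in cortex to 0.2205 ± 0.0272 (n = 2) in the bulb, a log2 ratio change of −2.22 (SE 0.12, limma adjusted p = 1e-62), and 0 of the 25664 bins had a lower change. Against cerebellum the change was −2.30, and 4 bins had a lower one.

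The Dlx factors bind DNA through a homeodomain and specify GABAergic neurons of the forebrain. In the bin of Dlx5 and Dlx6 (chr6:6800001-6900000), 5mC was 0.391, 0.368 and 0.378 in cortex, 0.207 and 0.194 in the bulb, and 0.433 and 0.425 in cerebellum. The 3 tissues did not overlap, and the bulb was the lowest. The bulb differed from cortex by −1.29 (SE 0.12, limma adjusted p = 5.24e-23), a change that 7 of all bins exceeded downward. In the bin of Dlx1 and Dlx2 (chr2:71500001-71600000), 5mC was 0.429, 0.446 and 0.428 in cortex, 0.308 and 0.288 in the bulb, and 0.508 and 0.477 in cerebellum. Here too each tissue kept to its own range, in the same order. The bulb differed from cortex by −0.86 (SE 0.12, limma adjusted p = 1.1e-10), and 38 of all bins had a lower change.

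Both Dlx bins were already among the least methylated of the genome in every tissue. Only 0.296% of bins in cortex and 0.0156% in the bulb had a lower mean 5mC level than the bin of Dlx5 and Dlx6, and 0.865% in cerebellum did. For the bin of Dlx1 and Dlx2 these shares were 0.916%, 0.0974% and 2.14%. The Tshz1 bin stood apart in this respect, since 10.1% of bins were below it in cortex and 6.46% in cerebellum, but 0.0312% in the bulb.

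Sp8 and Sp9 are zinc finger factors required for the formation of bulb interneurons, and their bins were low in 5mC in all 3 tissues. At Sp8 (chr12:118800001-118900000), the levels were 0.443, 0.429 and 0.371 in cortex, 0.407 and 0.392 in the bulb, and 0.426 and 0.391 in cerebellum. The 3 tissues overlapped, and the change between bulb and cortex was −0.090 (SE 0.12, limma adjusted p = 0.535). At Sp9 (chr2:73200001-73300000), the levels were 0.420, 0.397 and 0.388 in cortex, 0.359 and 0.383 in the bulb, and 0.515 and 0.465 in cerebellum. The bulb lay just under cortex without overlap, but the change of −0.19 (SE 0.12, limma adjusted p = 0.183) did not pass the test. The difference from cerebellum did pass, at −0.70 (limma adjusted p = 8.56e-07).

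Etv1, an ETS-domain factor found in granule and dopaminergic cells of the bulb, also in cerebellar granule cells and in deep layers of the cortex, spans a pair of bins that behaved differently. The bin with its start (chr12:38700001-38800000) had 5mC levels of 0.640, 0.616 and 0.590 in cortex, 0.596 and 0.585 in the bulb, and 0.576 and 0.602 in cerebellum. All 3 tissues overlapped there. The bin with most of the gene body (chr12:38800001-38900000) had 0.721, 0.737 and 0.665 in cortex, 0.616 and 0.600 in the bulb, and 0.542 and 0.553 in cerebellum. Its tissues did not overlap, and cerebellum rather than the bulb was the lowest. The change from cortex was −0.65 in the bulb (SE 0.12, limma adjusted p = 1.92e-06) and −1.01 in cerebellum (SE 0.12, limma adjusted p = 1.36e-15).

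Gad1 and Gad2 encode the enzymes that make GABA from glutamate in all GABAergic neurons, those of cortex and cerebellum included. The first bin of Gad1 (chr2:70500001-70600000) had 5mC levels of 0.512, 0.531 and 0.483 in cortex, 0.426 and 0.378 in the bulb, and 0.625 and 0.588 in cerebellum. The tissues did not overlap, and the bulb differed from cortex by −0.62 (SE 0.12, limma adjusted p = 4.94e-06). The second bin (chr2:70600001-70700000) had 0.640, 0.618 and 0.599 in cortex, 0.656 and 0.641 in the bulb, and 0.696 and 0.675 in cerebellum, and the bulb did not pass against either tissue. At Gad2 (chr2:22600001-22700000), 5mC was 0.558, 0.539 and 0.505 in cortex, 0.475 and 0.484 in the bulb, and 0.633 and 0.582 in cerebellum. The tissues did not overlap, but the gap between bulb and cortex was narrow. The change of −0.32 (SE 0.12) had a limma adjusted p of 0.024, which rose to 0.147 without cortex replicate 1, to 0.0531 without cortex replicate 2, to 0.2004 without olfactory bulb replicate 1, to 0.119 without olfactory bulb replicate 2, and to 0.119 with no filter on bins at 0 or 1.

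**Figure D1:**
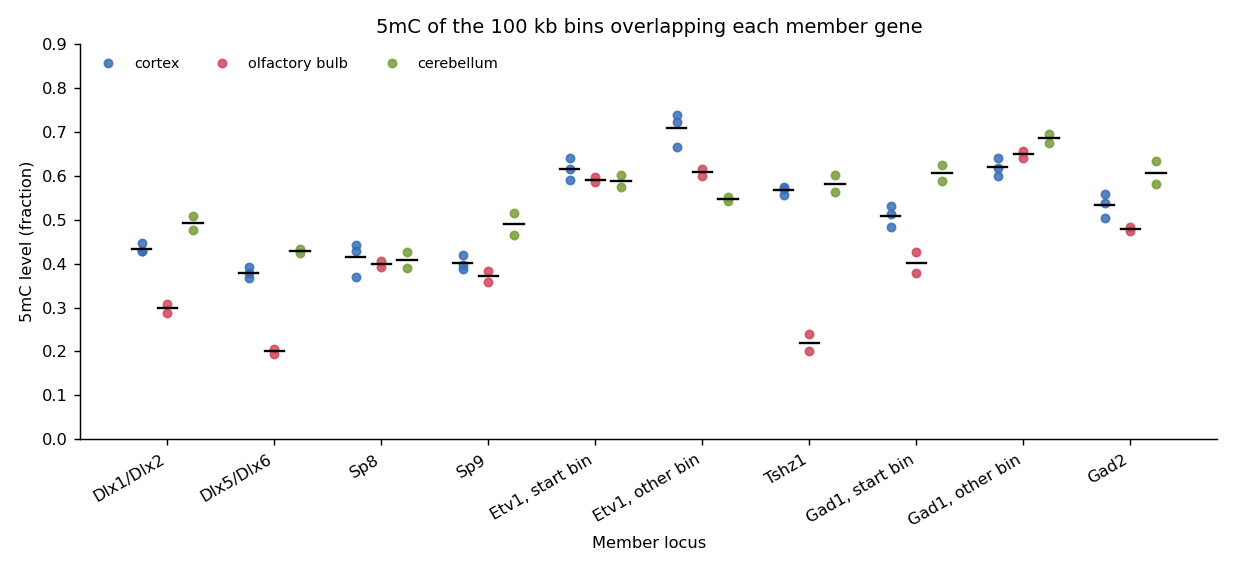
5mC level (a fraction of 1, vertical axis) of the 100 kb bins that overlap each gene, with 1 point for each oxBS-seq library of cortex, olfactory bulb and cerebellum and a black line at the mean of the tissue. The red points of the bulb lie far below the others at Tshz1 (0.240 and 0.201) and at Dlx5/Dlx6 (0.207 and 0.194), and among the others at Sp8.

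**Figure D2:**
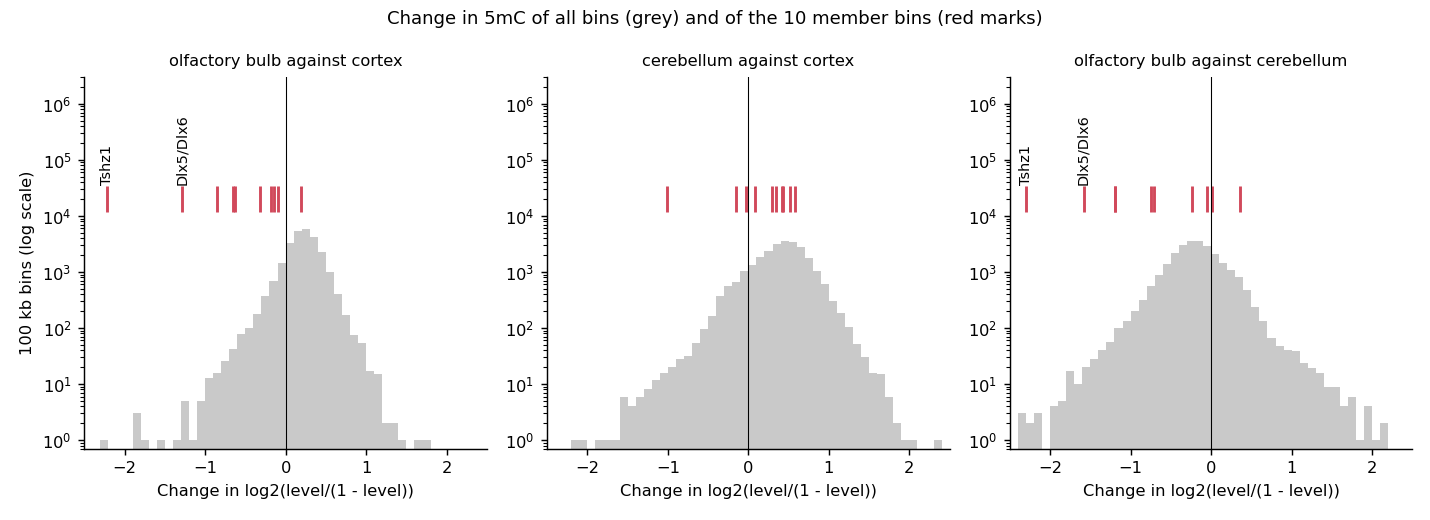
Change in the log2 ratio of 5mC (horizontal axis) for all 25664 bins, as grey bars counting bins in steps of 0.1 on a log axis, with a red mark for each of the 10 member bins in each comparison. In the left panel Tshz1 marks the lowest change, −2.22, and Dlx5/Dlx6 stands at −1.29, while most grey bins lie above 0. In the middle and right panels 1 and 4 bins lie outside the range counted.

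In cerebellum the direction was mostly the opposite. Relative to cortex, 6 of the 10 member bins passed as higher and 1 as lower, where 71.9% of all bins passed as higher and 4.44% as lower. The median change over the members was 0.32, below the 0.43 of all bins. The higher bins were both bins of Gad1 (0.57 and 0.42), Sp9 (0.52), Gad2 (0.43), Dlx1 and Dlx2 (0.34) and Dlx5 and Dlx6 (0.30). The bin called lower was the second bin of Etv1, described above. Of the 6, Dlx1 and Dlx2, Dlx5 and Dlx6, and Gad2 did not pass without cerebellum replicate 1, which left 3. Without cortex replicate 3 both bins of Etv1 passed as lower, which made 2.

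The higher calls in cerebellum depended on the shift of the genome. With the libraries centred, 0 of the 10 member bins passed as higher and 4 passed as lower, both bins of Etv1 and those of Sp8 and Tshz1. The changes at Dlx1 and Dlx2 and at Dlx5 and Dlx6 then turned to −0.071 and −0.11, and the 0.088 at Tshz1 turned to −0.32. Over all bins the calls were then 6235 lower and 6606 higher, in place of 1139 and 18457.

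Between bulb and cerebellum, 6 of the 10 bins were lower in the bulb and 1 was higher, where 35.3% of all bins passed as lower and 7.69% as higher. The lower bins were those of Tshz1 (−2.30), Dlx5 and Dlx6 (−1.58), the first of Gad1 (−1.20), Dlx1 and Dlx2 (−1.19), Gad2 (−0.75) and Sp9 (−0.70). The higher bin was the second of Etv1, with a change of 0.36 (SE 0.13, limma adjusted p = 0.0156). That call was lost when any 1 of the 4 libraries was left out, with adjusted p of 0.162 without olfactory bulb replicate 1, 0.0632 without olfactory bulb replicate 2, 0.141 without cerebellum replicate 1 and 0.0516 without cerebellum replicate 2. With the libraries centred, the calls over all bins were 5671 lower and 5459 higher, in place of 9069 and 1974. The 3 comparisons share their libraries by pairs, so they are not independent of each other.

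The bins within 500 kb on either side of the genes were read in the same way. Of the 78 distinct flanking bins tested, 12 were lower and 8 higher in olfactory bulb than in cortex, and their median change was 0.061. Over all bins 2.18% passed as lower and 37.6% as higher. In cerebellum 65 of the 78 were higher than in cortex and 1 was lower. The shares over all bins were 71.9% higher and 4.44% lower. Between bulb and cerebellum, 55 were lower in the bulb and 1 was higher, beside shares over all bins of 35.3% and 7.69%.

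Around Tshz1 the 5 flanking bins on the side upstream of the gene were all lower in the bulb. All of these bins overlap Zfp407, a zinc finger gene. The farthest of them (chr18:84500001-84600000) had a 5mC level of 0.647, 0.626 and 0.593 in cortex, 0.441 and 0.399 in the bulb, and 0.730 and 0.720 in cerebellum. Its bulb libraries lay below all others, with a change from cortex of −1.19 (limma adjusted p = 1.03e-19). Beside Dlx1 and Dlx2, the bin just before (chr2:71400001-71500000) differed by −0.73 and the bin just after by −0.29, and beside Dlx5 and Dlx6 the bin just before (chr6:6700001-6800000) differed by −0.36. The opposite was seen beside Sp9, where 4 flanking bins on 1 side were higher in the bulb by 0.28 to 0.66.

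Subtracting the mean of the flanks from the gene bins within each library removes a shift that is equal, as a fraction, in both. A shift that is equal on the log2 ratio need not cancel. The gene bins lay below their flanks in cortex at every locus, by 0.196 at Dlx1 and Dlx2 for example, and lay further below them in the bulb, by 0.308 there. The gene-minus-flank level was lower in the bulb than in cortex at 8 of 8 loci and without overlap of libraries at 7, all but Sp8. Over all 25212 bins with 10 flanking bins, treated singly in the same way, 19.7% were lower and 20.2% higher without overlap. The differences between bulb and cortex were −0.287 at Tshz1, −0.178 at Dlx5 and Dlx6, −0.112 at Dlx1 and Dlx2, −0.0831 at Gad2, −0.0627 at Etv1, −0.0559 at Sp9, −0.0355 at Gad1 and −0.0205 at Sp8. The flank mean itself differed between bulb and cortex, from −0.0595 at Tshz1 to 0.0286 at Gad2, and enters these values. With 3 libraries against 2, a two-sided exact permutation test cannot give a p below 0.1, the value at the 7 loci (0.267 after Benjamini-Hochberg adjustment over 24 tests).

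At Gad2 the flank mean includes a bin whose libraries disagreed. That bin (chr2:22500001-22600000) ranged from 0.232 to 0.468 in cortex and read 0.295 and 0.533 in the bulb. In cerebellum it read 0.680 and 0.571.

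The gene-minus-flank level singled out Etv1 in cerebellum. It was lower there than in cortex by 0.154 at Etv1, the libraries not overlapping, while the flanks of Etv1 were 0.0599 higher. Sp8 and Tshz1 also had lower values in cerebellum than in cortex without overlap, at −0.0637 and −0.0566, and Gad1 by a smaller −0.00729. At the other 4 loci the libraries of cerebellum and cortex overlapped, and over all bins 27.0% were lower and 26.9% higher without overlap. Between bulb and cerebellum the value was lower in the bulb at 6 of 8 loci and higher at Etv1 (0.0908) and Sp8 (0.0433), all without overlap, as in 31.9% of all bins for lower and 33.0% for higher values. The smallest exact p that 2 libraries against 2 allow is 0.33.

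**Figure D3:**
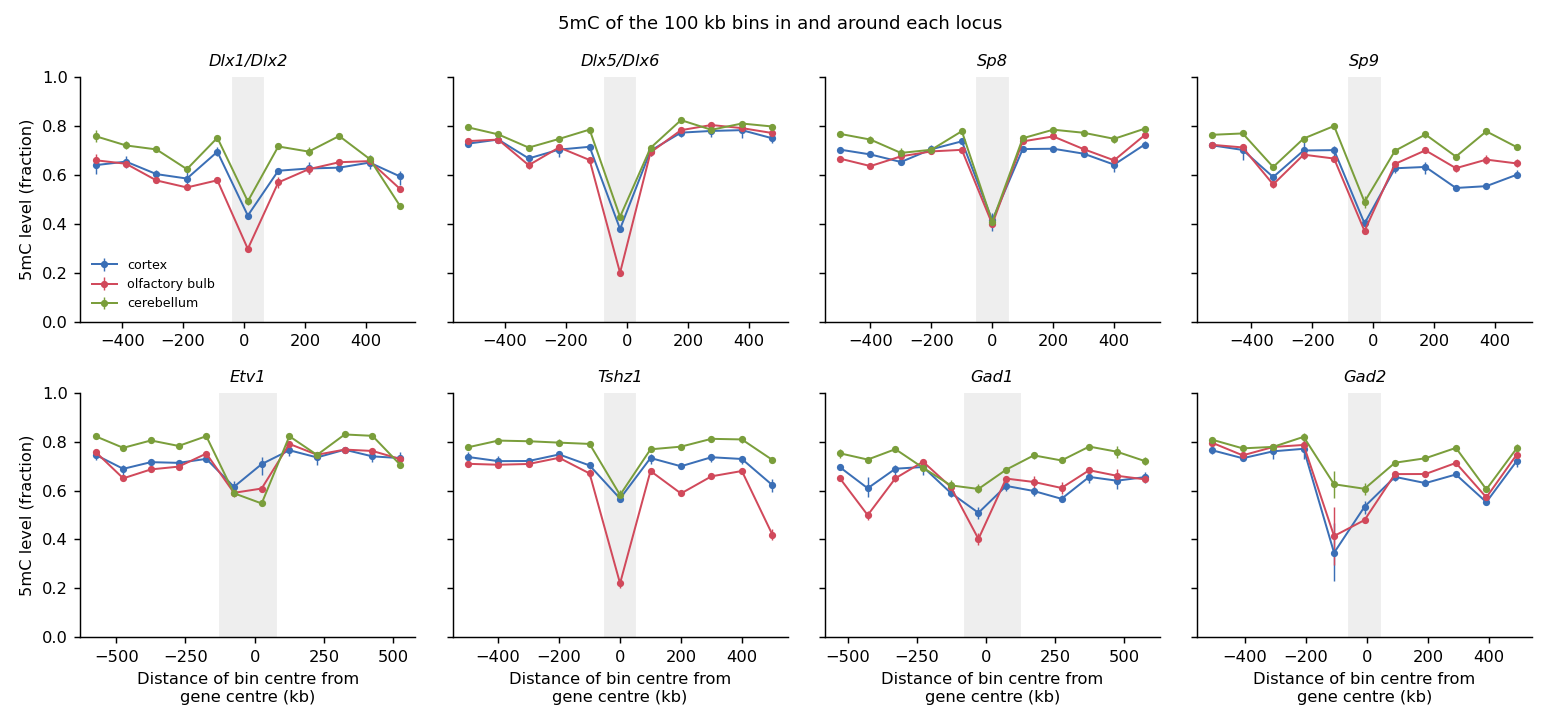
Mean 5mC level (vertical axis, fraction) of the 100 kb bins in and around each locus against the distance of the bin centre from the centre of the gene or gene pair (horizontal axis, kb), with bars from the lowest to the highest library and the gene bins shaded. At Tshz1 and Dlx5/Dlx6 the red line of the olfactory bulb dips to 0.2205 and 0.2003 in the shaded bin, at Etv1 the green line of cerebellum dips lowest, and at Sp8 the 3 tissues reach nearly the same level.

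5hmC was measured in bins of 1 Mb, in which the member genes take a small share, 0.92% for Dlx1 and Dlx2. The values therefore describe the neighbourhood of each gene with all other genes in it. Relative to cortex, 3 of the 8 member bins passed as higher in olfactory bulb and 0 as lower, where 3.25% of all bins passed as higher and 67.7% as lower. The 3 bins were those of Etv1, Dlx5 and Dlx6, and Sp8. The median change over the 8 bins was 0.11, against −0.24 over all bins. The 7 flanking bins of 1 Mb, which reach within 500 kb of the genes, had a median change of 0.093. They include the bin of Dlx1 and Dlx2, a flank of Gad1. Of the 7, 2 passed as higher and 2 as lower. A change above that of all bins was thus not particular to the member bins.

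The Etv1 bin (chr12:38000001-39000000) had 5hmC levels of 0.170, 0.186 and 0.169 in cortex, 0.208, 0.214 and 0.203 in the bulb, and 0.131, 0.128 and 0.128 in cerebellum. The bin of Dlx5 and Dlx6 (chr6:6000001-7000000) had 0.172, 0.185 and 0.161 in cortex, 0.201, 0.206 and 0.196 in the bulb, and 0.0779, 0.0785 and 0.0810 in cerebellum. At Sp8 (chr12:118000001-119000000) the levels were 0.147, 0.162 and 0.145 in cortex, 0.174, 0.179 and 0.172 in the bulb, and 0.0830, 0.0804 and 0.0815 in cerebellum. In these 3 bins every library of the bulb was above every library of cortex, which in turn was above every library of cerebellum. The changes from cortex to bulb were 0.31 (limma adjusted p = 5.87e-05), 0.27 (0.000497) and 0.25 (0.00145) in that order, each with an SE of 0.073.

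At the other 5 loci bulb and cortex overlapped. The Tshz1 bin (chr18:84000001-85000000) had 0.212, 0.223 and 0.197 in cortex, 0.216, 0.227 and 0.216 in the bulb, and 0.125, 0.120 and 0.126 in cerebellum. This was the highest 5hmC level of the 8 loci in the bulb, above 96.7% of all bins there, although the 100 kb bin of the gene had among the lowest 5mC. At Dlx1 and Dlx2 (chr2:71000001-72000000), 5hmC was 0.195, 0.207 and 0.185 in cortex, 0.210, 0.216 and 0.204 in the bulb, and 0.108, 0.109 and 0.111 in cerebellum. At Gad1 (chr2:70000001-71000000) it was 0.192, 0.206 and 0.185 in cortex, 0.199, 0.207 and 0.204 in the bulb, and 0.0941, 0.0940 and 0.0941 in cerebellum. The order of the means was the same at both loci, with the bulb above cortex by less than the spread of the cortex libraries at Gad1.

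Sp9 was the 1 locus at which the mean of the bulb was below that of cortex. Its bin (chr2:73000001-74000000) had 0.199, 0.217 and 0.190 in cortex, 0.194, 0.201 and 0.194 in the bulb, and 0.104, 0.109 and 0.110 in cerebellum, a change of −0.050 that turned to 0.19 with the libraries centred and to 0.014 without cortex replicate 2. Gad2 had the lowest 5hmC of the 8 loci in every tissue. Its bin (chr2:22000001-23000000) had 0.123, 0.142 and 0.122 in cortex, 0.131, 0.143 and 0.135 in the bulb, and 0.0566, 0.0623 and 0.0610 in cerebellum.

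The count of bins higher in the bulb depended on cortex replicate 2, which had the highest 5hmC of the 3 cortex libraries over the genome, a mean of 0.173 against 0.161 and 0.155. Without it 7 of the 8 bins passed as higher, all but Sp9. The share of all bins higher in that fit is not given here. The 3.25% above belongs to the fit with all libraries, so the 7 cannot be set against it. With the libraries centred all 8 passed, and the calls over all bins split as 853 lower and 935 higher in place of 1747 and 84.

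Relative to cortex, 8 of the 8 member bins were lower in 5hmC in cerebellum and 0 were higher, where 97.6% of all bins passed as lower and 0.426% as higher, so the members shared this with nearly the whole genome. Their median change was −1.04, against −0.97 over all bins, and the smallest loss was at Etv1, −0.52. With the libraries centred 3 member bins passed as lower and 3 as higher, the latter being Etv1 (0.52), Tshz1 (0.12) and Dlx1 and Dlx2 (0.059), and the calls over all bins were 1035 lower and 1298 higher in place of 2520 and 11. Between bulb and cerebellum 8 of 8 were higher in the bulb and 0 lower, where 91.8% of all bins passed as higher and 1.20% as lower. Here the median change was 1.18, against 1.11 in the 7 flanking bins and 0.72 over all bins. Centred libraries gave 1314 lower and 1008 higher calls over all bins, in place of 31 and 2369. Dlx5 and Dlx6 had the largest change of the 8 loci, 1.55, and Etv1 the smallest, 0.83. With the libraries centred, the change at Etv1 fell to 0.029 and no longer passed (limma adjusted p = 0.366).

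**Figure D4:**
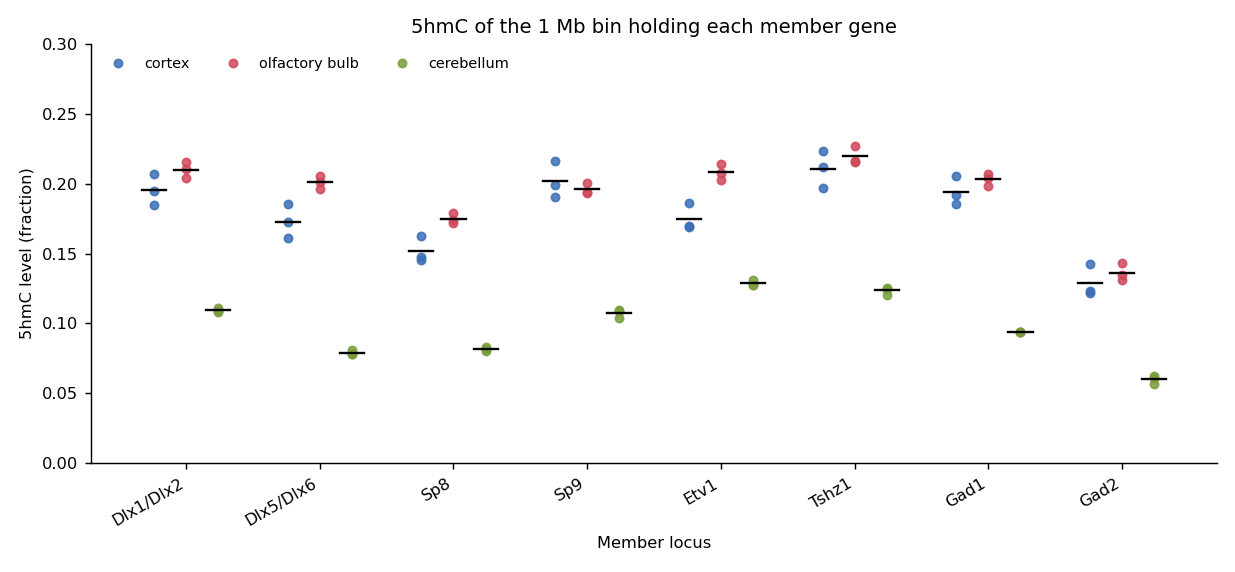
5hmC level (a fraction of 1, vertical axis) of the 1 Mb bin that holds each locus, with 1 point for each TAB-seq library and a black line at the mean of the tissue. Cerebellum lies lowest at every locus, and the bulb lies above cortex without overlap at Dlx5/Dlx6, Sp8 and Etv1.

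Setting the assays side by side, the sum of 5mC and 5hmC was formed per 1 Mb bin, with the 5mC of its 100 kb bins averaged first. The libraries of the assays are separate, so SDs were propagated and no test was made. At Tshz1 the sum was 0.872 ± 0.0201 in cortex, 0.810 ± 0.00837 in the bulb and 0.852 ± 0.0149 in cerebellum. With these means it was the only one of the 8 loci at which the sum in the bulb lay below that of cortex by more than either SD. With the median of the 100 kb bins in place of their mean the direction turned, at 0.870 in cortex and 0.880 in the bulb. At Dlx5 and Dlx6 the sum was 0.848 ± 0.0181, 0.852 ± 0.00477 and 0.804 ± 0.00584, nearly level between bulb and cortex, with 5mC of 0.675 in cortex and 0.651 in the bulb and 5hmC of 0.173 and 0.201. At Sp8 it was 0.826 ± 0.0156, 0.838 ± 0.00376 and 0.787 ± 0.0166, and at Etv1, the highest of the 8 loci in each tissue, it was 0.887 ± 0.0162, 0.903 ± 0.00587 and 0.889 ± 0.00551. At the other 4 loci the sums lay between 0.791 and 0.828 in all 3 tissues.

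As a share of the sum, 5hmC was larger in the bulb than in cortex at 7 of the loci, whereas over the genome it was 17.0% in the bulb and 19.4% in cortex. It was 27.1% in the bulb and 24.2% in cortex at Tshz1, 26.6% and 24.2% at Dlx1 and Dlx2, 25.0% and 23.8% at Gad1, and 23.6% and 20.4% at Dlx5 and Dlx6. At Etv1 the shares were 23.1% and 19.7%, at Sp8 20.9% and 18.4%, and at Gad2 16.7% and 16.3%. Sp9 was the exception, with 23.7% in the bulb and 25.2% in cortex. In cerebellum the shares ran from 7.47% at Gad2 to 14.5% at Tshz1, against 11.5% over the genome.

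**Figure D5:**
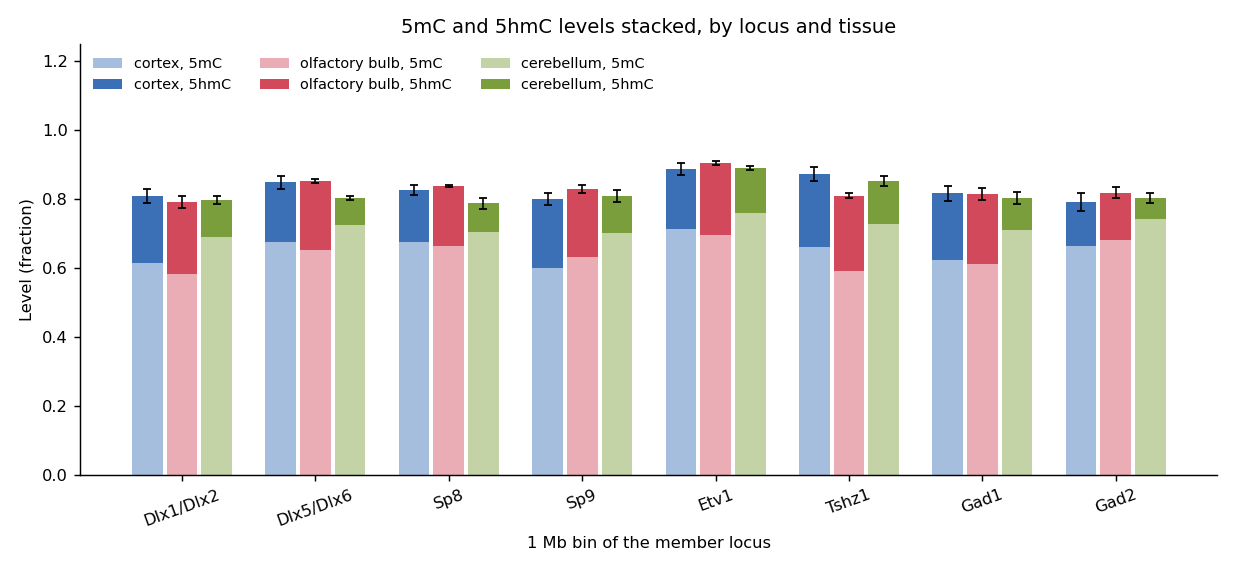
Mean 5mC (pale) and 5hmC (dark) levels of the 1 Mb bin of each locus, stacked, in cortex, olfactory bulb and cerebellum, with the propagated SD of the sum as black bars and the level as a fraction on the vertical axis. The dark part is smallest in cerebellum at every locus, and at Tshz1 the total in the bulb, 0.810, lies below the 0.872 of cortex, which turns to 0.880 and 0.870 when medians of the 100 kb bins are used.

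Other genes of the same neurons did not move as a block. Of 15 further regulators of bulb interneurons, read in the 100 kb bin with the start site, 2 were lower in 5mC in the bulb than in cortex, 4 were higher and 9 did not pass, with a median change of 0.050. Beside these counts stand shares over all bins of 2.18% lower and 37.6% higher, and a median change of 0.22. Meis2, a homeodomain factor of these interneurons, fell by 1.58 on the log2 ratio (0.436 in cortex, 0.206 in the bulb, limma adjusted p = 4.22e-34), and Sall1, a zinc finger factor, fell by 0.43. Nr2e1, a nuclear receptor of adult neural stem cells, and Vax1, a homeodomain factor of the ventral forebrain, were higher by 0.40 each. Of 11 genes for handling of GABA or for subtypes of bulb interneurons, 2 were lower, 1 was higher and 8 did not pass. Abat, which breaks down GABA, fell by 0.41, whereas the calcium binder Calb1 rose by 0.40. Their median was −0.014.

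Markers of other cells were read in the same way. Of these 38 genes, 0 were called lower in the bulb by limma, where 2.18% of all bins were, so that few such calls or none would match the share over all bins. Higher calls were 17 of the 38, where 37.6% of all bins passed as higher, and the counts below stand beside that share. Of 8 markers of cortical excitatory neurons, 6 were higher in the bulb than in cortex, among them Fezf2 (0.60), Neurod6 (0.60) and Emx1 (0.52), transcription factors of cortical projection neurons. Of 9 markers of cortical interneurons, 2 were higher, Satb1 (0.41) and Pvalb (0.37), and 7 did not pass, with values from −0.16 to 0.17. Of 8 oligodendrocyte genes, which lie in 7 bins, 5 were higher, among them Olig1 and Olig2, which share a bin (0.47), Mobp (0.42) and Mag (0.37). Of 7 astrocyte genes, 2 were higher, Aldh1l1 (0.52) and S100b (0.49). Of 6 markers of cerebellar granule neurons, 2 were higher, Gabra6 (0.56) and Cbln3 (0.29). The list medians were 0.42 for cortical excitatory neurons, 0.073 for cortical interneurons, 0.28 for oligodendrocytes, 0.21 for astrocytes and 0.25 for granule neurons, beside the 0.22 of all bins. The part of any difference in cell makeup in the values of the members was not tested.

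The same lists were read in other comparisons, beside shares over all bins of 71.9% higher and 4.44% lower for 5mC in cerebellum against cortex and of 3.25% higher and 67.7% lower for 5hmC in bulb against cortex. In cerebellum relative to cortex, 8 of the 15 regulators were higher and 2 lower, and 8 of the 11 GABA and subtype genes were higher and 1 lower. The cortical interneuron list had 6 of 9 higher, the cortical excitatory list 6 of 8, the oligodendrocyte list 7 of 8 and the astrocyte list 6 of 7, none of them with a lower call by limma. The granule neuron list had 2 of 6 lower, Fat2 (−1.71) and Cbln1 (−0.54), and 0 higher by limma. For 5hmC in the bulb relative to cortex, 3 of the 15 regulators were higher and 6 lower, and all other lists together had 0 higher calls by limma. In fits to all libraries without any alternative setting, each 0 given for members or lists stayed 0 at an unadjusted limma p under 0.05.

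The pattern of the members was also sought elsewhere. Over the 7 oxBS-seq libraries, the mean log2 ratio of the 10 member bins was followed most closely, among 4472 bins more than 1 Mb away and at least as variable, by bins with Zfp608 (Pearson r = 0.997), Lgr6 (0.997), Pbx3 (0.994) and Meis2 (0.992) and by a bin with no protein-coding gene (chr3:34200001-34300000, 0.989). Pbx3 and Meis2 are homeodomain partners, and the bin with Pbx3 (chr2:34200001-34300000) had a mean 5mC level of 0.659 in cortex, 0.351 in the bulb and 0.716 in cerebellum. An r of at least 0.95 was reached by 42 bins. These correlations describe 7 libraries of 3 tissues, which share their tissue means, and carry no test. The members themselves differed in how well they followed their mean, from an r of 0.978 at Dlx1 and Dlx2, 0.976 at Dlx5 and Dlx6 and 0.971 at Tshz1 to 0.442 at Sp8 and 0.114 at the second bin of Etv1. The mean includes each of these bins, and bins with large changes weigh more in it, so these r values are partly built in.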

How the data were processed

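Whole cortex, olfactory bulb and cerebellum were profiled by oxBS-seq (7 libraries) and TAB-seq (9 libraries). The authors mapped reads uniquely to mm10 with Bismark (version not given in the sources used here) and deposited the level of each bin as a fraction from 0 to 1, without counts or coverage. The rule that merged CpG sites into bins is not given in the sources used here, so the depth behind each fraction is unknown and no interval is given. The RNA-seq libraries were not analysed here.

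Samples were grouped by their labels. Spans came from GENCODE M21, and the printed sequences from RefSeq windows on GRCm38, searched for 2 motifs. A bin listed at 0 or 1 in at least 1 library of its assay was dropped (628 to 640 bins were at 0 per oxBS-seq library, 60 per TAB-seq library). limma 3.58.1 in R 4.3.3 was fitted to log2(level/(1 − level)) over the 3 tissues of an assay, with Benjamini-Hochberg adjustment over all bins and a threshold of 0.05. In data simulated for bulb against cortex over 25664 bins of 5mC, changes of 0.2, 0.5 and 1 were recovered in 0%, 73% and 100% of 200 bins, and for 2581 bins of 5hmC in 23%, 100% and 100%. The tissues were made equal in all other simulated bins. Far fewer bins differed than in the real data, and the adjusted threshold was therefore stricter. Gene bins minus the mean of the flanks within 500 kb were compared by two-sided exact permutation tests (scipy 1.17.1). The members and lists were chosen with earlier results of these data known. All members are named. Of each list up to 4 called genes with the largest change between bulb and cortex are named, except 2 genes not reported here, Fat2 and Cbln1 were named after their values were seen, and the 5 nearest bins were taken by Pearson r. Alternatives were centring each library on its median, the fraction scale, a trended robust fit, fitting only the pair of tissues, no filter, a replicate block, start-site bins only, 5mC averaged to 1 Mb, 200 kb flanks, medians for the sums, and leaving out each library.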

Additional observations from a re-analysis of the deposited data

How the results depend on the processing

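With each library centred on its median, the member bins called in cerebellum against cortex were 4 lower and 0 higher for 5mC and 3 lower and 3 higher for 5hmC, and 8 were higher in 5hmC in bulb against cortex. The following changes reversed under centring. For 5mC they were the second bin of Gad1 in bulb against cortex (−0.039), Dlx1/Dlx2 (−0.071), Dlx5/Dlx6 (−0.11) and Tshz1 (−0.32) in cerebellum against cortex, and Sp8 in bulb against cerebellum (0.13). For 5hmC they were Sp9 in bulb against cortex (0.19), and Dlx1/Dlx2 (0.059), Etv1 (0.52), Sp8 (0.036) and Tshz1 (0.12) in cerebellum against cortex. Centring subtracts the shift of the whole genome by construction. With 5mC averaged to 1 Mb, the bulb against cortex had 2 bins lower and 1 higher, cerebellum against cortex had 0 lower and bulb against cerebellum 0 higher. Start-site bins alone left 0 lower in cerebellum against cortex and 0 higher in bulb against cerebellum, since the second bin of Etv1 is then not read, and no filter left 0 higher in the latter. Beyond these, the fraction scale, the trended robust fit and the fit of 2 tissues moved no count of calls by over 1.5 times. Still, the 5hmC bin of Dlx1/Dlx2 passed as higher in bulb against cortex under 2 of them. Its limma adjusted p was 0.0150 on the fraction scale and 0.0481 in the trended robust fit.

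Leaving out each library in turn, the members called in cerebellum against cortex for 5mC ranged from 1 to 2 lower and from 3 to 6 higher. Those higher in 5mC in bulb against cerebellum were 0 in each of these fits, in place of 1 with all libraries. Those higher in 5hmC in bulb against cortex ranged from 3 to 7. The count lower in 5mC in bulb against cortex ranged from 5 to 6. Uncalled changes that reversed in some of these fits ranged from −0.16 to 0.073 at Sp8 and from −0.026 to 0.20 at Tshz1 in cerebellum against cortex, from −0.068 to 0.089 at the first bin of Etv1 and from −0.16 to 0.049 at Sp8 in bulb against cerebellum, and from −0.10 to 0.014 for 5hmC of Sp9 in bulb against cortex. Gene-minus-flank levels in cerebellum against cortex that reversed ranged from −0.00691 to 0.00939 at Dlx1/Dlx2, from −0.00183 to 0.0195 at Dlx5/Dlx6, from −0.0240 to 0.00679 at Sp9 and from −0.0236 to 0.00957 at Gad2. With 200 kb flanks, Dlx1/Dlx2 (−0.00771) and Sp9 (0.000325) reversed.

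With a replicate block, 2 member bins instead of 1 passed as lower in 5mC in cerebellum against cortex, and the second bin of Gad1 passed as lower in bulb against cerebellum. No other call changed. Correlations of the deviations of samples with the same number ran from −0.0932 to 0.0290 for 5mC. For 5hmC they ran from −0.191 to 0.429, with 0.391, 0.429 and 0.0566 between bulb and cerebellum and 0.331 for replicate 1 of bulb and cortex, so some pairs deviated together and others did not, and the numbers were not taken to pair the samples. The numbers used for the block and for the libraries left out are those of the sample titles, and the numbers carried by the deposited data differ from them.

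The median of the 100 kb bins in place of the mean moved 15 of 24 sums of 5mC and 5hmC by more than 1 SD. They became 0.814 in bulb and 0.820 in cerebellum at Dlx1/Dlx2, 0.882, 0.903 and 0.842 in cortex, bulb and cerebellum at Dlx5/Dlx6, 0.851, 0.863 and 0.824 at Sp8, and 0.827, 0.865 and 0.833 at Gad2. In bulb they became 0.851 at Sp9, 0.880 at Tshz1 (0.870 in cortex, so that the bulb no longer lay below it) and 0.838 at Gad1, and in cerebellum 0.939 at Etv1. The cause was not tested. With 2 or 3 libraries per tissue and no coverage, changes in 5mC of 0.2 were not recovered in the simulated data. Those data had far fewer changed bins than the real data, so the limit in the real data may differ.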
